A study of Mus musculus with 59 samples.

Results

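The replication-dependent histone cluster genes were taken as all rows of the deposited expression table whose symbol begins with Hist1h, Hist2h, Hist3h or Hist4h, the names that the older mouse nomenclature gives to the histone genes of 4 chromosomal clusters. This rule uses the name alone and found 71 of the 47643 symbols in the table. The Hist1 cluster gave 56 members, Hist2 gave 11, Hist3 gave 3 and Hist4 gave 1. By histone type, 6 members belong to the linker histone H1, 20 to H2A, 20 to H2B, 12 to H3 and 13 to H4. The annotation calls 68 of them protein coding, and Hist1h2al, Hist1h2aj and Hist3h2bb-ps pseudogenes.

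Messenger RNA was sequenced from 59 muscles of female NCI Ath/nude mice aged 4 months, a strain that lacks a thymus and hence mature T cells but keeps B cells and macrophages. Every mouse carried a melanoma that was grown as a xenograft in the flank from a patient tumor, so no group is free of tumor. One xenograft line, MAST360B, wastes its host and is called cachectic, and the other, MAST552A, is called non-cachectic, so that wasting and any other difference between the 2 lines cannot be told apart. The diaphragm gave 10 libraries of cachectic mice injected with recombinant Fibcd1 (rFibcd1, a protein that muscle secretes), 10 of cachectic mice injected with PBS and BSA alone (mock), 10 of non-cachectic mice given rFibcd1 and 9 of non-cachectic mock mice. The tibialis anterior, a fast limb muscle, and the soleus, a slow one, gave 5 cachectic and 5 non-cachectic libraries each. No rFibcd1 label is given for the limb muscles.

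Nucleosomes wrap DNA around an octamer of the core histones H2A, H2B, H3 and H4, and H1 binds the linker DNA between them. Dividing cells need new histones when they copy their DNA, and the clustered genes supply them in S phase. Their usual transcripts carry no poly(A) tail: they end shortly behind a stem-loop that is bound by the stem-loop binding protein Slbp and cut with the help of the U7 small nuclear RNP. Some clustered genes also give polyadenylated transcripts in cells that have stopped dividing, and muscle fibers are such cells. A library made from poly(A) RNA favors the polyadenylated forms, and bulk tissue holds fibers together with dividing cells. A lower value in bulk tissue can mean fewer cells of a type or less RNA per cell, which cannot be told apart here.

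Facts of the libraries bear on all values below. Between 16436 and 19456 genes were above 0 per library, and 23 RNAs known to lack a poly(A) tail were listed at 0 in all 59 libraries. Such uniform values cannot tell RNA that was not captured from rows that were never counted. The slow myosin Myh7 was at 4288 to 7886 TPM in soleus, 265 to 652 in diaphragm and 0.271 to 4.83 in tibialis anterior, which separates the muscles as labelled, although 1 cachectic soleus (number 7 in the deposited table) held 4989 TPM of the fast myosin Myh4 against a soleus median of 28.0. The pseudogene Pcna-ps2 divided the libraries into those above and those not above 1 TPM. Among diaphragms, 9 of 10 cachectic mock, 8 of 10 cachectic rFibcd1, 3 of 9 non-cachectic mock and 6 of 10 non-cachectic rFibcd1 libraries lay above it. In both limb muscles all cachectic libraries lay above and all non-cachectic libraries below, so that there this state and the melanoma cannot be told apart.

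The stem-loop that marks this gene class was looked for in the annotated transcripts of the members (GENCODE M21, GRCm38), behind the coding part and on the transcript strand. It is shown for the carriers among the 8 most abundant members and for the pair of most abundant H3 genes, because it separates the canonical tailless end from the longer ends that some members have. Capitals mark the 16-base stem-loop, and each sequence runs 5′ to 3′.
Hist1h1c: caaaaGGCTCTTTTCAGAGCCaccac
Hist1h4h: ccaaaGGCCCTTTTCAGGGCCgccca
Hist1h4i: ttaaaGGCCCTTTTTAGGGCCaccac
Hist1h2bk: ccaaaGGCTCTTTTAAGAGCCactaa
Hist2h2aa1 and Hist2h2aa2: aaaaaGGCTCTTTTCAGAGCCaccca
Hist2h3c1 and Hist2h3c2: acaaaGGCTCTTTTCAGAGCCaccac
These lie at chr13:23739507-23739532 (plus strand) for Hist1h1c, chr13:23531453-23531478 (plus) for Hist1h4h, chr13:22040961-22040986 (minus) for Hist1h4i and chr13:22036295-22036320 (plus) for Hist1h2bk. On chromosome 3, they lie at chr3:96246027-96246052 (plus) for Hist2h2aa1, chr3:96239779-96239804 (minus) for Hist2h2aa2, chr3:96247322-96247347 (plus) for Hist2h3c1 and chr3:96238480-96238505 (minus) for Hist2h3c2. The distance from the stop codon was 24 bases in Hist1h1c, 31 in Hist1h4h, 30 in Hist1h4i and 58 in both Hist2h2aa genes.

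What the members did not share was the length of annotated transcript behind the stem-loop. Annotated transcripts of Hist1h4h, Hist1h2bk and the Hist2h2aa pair end 46, 30 and 35 bases beyond it, whereas those of Hist1h1c, Hist1h4i, Hist2h3c1 and Hist3h2a run on for 840, 330, 1167 and 1643 bases. The stem-loop was found in 45 of the 71 members, and in 12 of the 16 members with a mean of at least 1 TPM against 33 of the 55 below that. Of all 141767 GENCODE transcripts, 208 (0.147%) held it, and 48 of these belonged to members. The poly(A) signal AATAAA stood somewhere in the annotated transcript of 6 of the 16 more abundant members and 16 of the 55 others. Of all transcripts, 45.9% held it. Median transcript length was 1088 bases in the 16 more abundant members and 508 bases in the 55 others. Hist1h2bc, Hist2h2be, Hist2h2bb_1 and Hist1h2al had a mean of at least 1 TPM without the motif in their annotated transcript. For Hist1h2al the annotation holds 339 bases and nothing behind the coding-like part, and the transcript of Hist2h2bb_1 ends with its coding part. Among the 55 members under 1 TPM, 2 have no annotated coding sequence and 12 have transcripts too short to hold the motif behind it. Where there was room for it, the stem-loop was found in 12 of 14 with a mean of at least 1 TPM and in 33 of 41 below that. A motif match is a description and shows no use of the site.

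Many members are near copies of each other, which limits what a count per gene can say. Of all pairs within a type, 237 shared at least 95% of their coding bases, and 57 of the 71 members had such a copy. By the shortest annotated coding sequence of each gene, all 13 H4 genes encode 1 protein, the 12 H3 genes 2, the 18 H2A genes with a coding sequence 9, the 19 such H2B genes 11 and the 6 H1 genes 6. Hist1h4h and Hist1h4i differ at 13 of 309 coding bases. For genes with several annotated coding sequences the best matching ones were compared. Those of Hist2h3c1 and Hist2h3c2 are identical over 408 bases, although another annotated coding sequence of Hist2h3c1 has 543 bases, and Hist2h3b differs from them by 1 base. The closest set among the abundant members was H2A: Hist2h2aa1 and Hist2h2aa2 are identical over all 390 coding bases, and Hist1h2al, a processed pseudogene at chr13:51202727-51203065 (minus) outside the main Hist1 cluster, matches 337 of 339 of them (99.4%). The differences are T135C and G231T, counted from the first base of the Hist2h2aa1 coding sequence with its base first and the base of Hist1h2al second. Windows of 21 bases around both places are shown because, over coding bases 16 to 354 where the 3 align, only reads across them can separate Hist1h2al from the Hist2h2aa pair. The annotated Hist1h2al does not reach the coding bases before and behind this stretch. The capital marks the base that differs.
Hist2h2aa1 and Hist2h2aa2, first window: agcgtgtgggTgccggcgcgc
Hist1h2al, first window: agcgtgtgggCgccggcgcgc
Hist2h2aa1 and Hist2h2aa2, second window: acaagaagacGcgcatcatcc
Hist1h2al, second window: acaagaagacTcgcatcatcc
The first window lies at chr3:96245705-96245725 (plus) in Hist2h2aa1, chr3:96240106-96240126 (minus) in Hist2h2aa2 and chr13:51202936-51202956 (minus) in Hist1h2al. The second lies at chr3:96245801-96245821 (plus), chr3:96240010-96240030 (minus) and chr13:51202840-51202860 (minus). How the counting divided reads among such copies is not given in the sources used here, so the level of each copy is uncertain. The same-strand transcript Gm20634 also overlaps Hist2h2aa1 by 529 bases and Hist2h3c1 by 1825 bases. Hist2h2aa1 overlaps the antisense Gm20633 by 586 bases, and Hist1h2be overlaps Hist1h1e by 496 bases on the same strand.

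Few members were abundant. TPM divides reads by gene length and scales every library to the same total, so levels of different genes can be compared on it. The mean over all 59 libraries was at least 10 TPM in 8 members and at least 1 TPM in 16, 47 members never reached 1 TPM in any library, and 5 (Hist2h2bb_2, Hist3h2bb-ps, Hist1h2aj, Hist1h2ah and Hist1h2aa) were listed at 0 throughout. Hist2h2bb_1 and Hist2h2bb_2 are 1 gene in GENCODE. The 8 abundant members made up 90.3% of all histone cluster TPM. These were the linker histone Hist1h1c at 117 TPM, the H2B genes Hist1h2bc at 80.8 and Hist1h2bk at 20.5, the H4 genes Hist1h4h at 44.1 and Hist1h4i at 26.0, and the H2A copies Hist1h2al at 37.99, Hist2h2aa1 at 29.1 and Hist2h2aa2 at 13.6. The most abundant H3 genes, Hist2h3c1 at 4.30 TPM and Hist2h3c2 at 3.11, lay well below them. The median of the 71 means was 0.110 TPM.

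**Figure D1:**
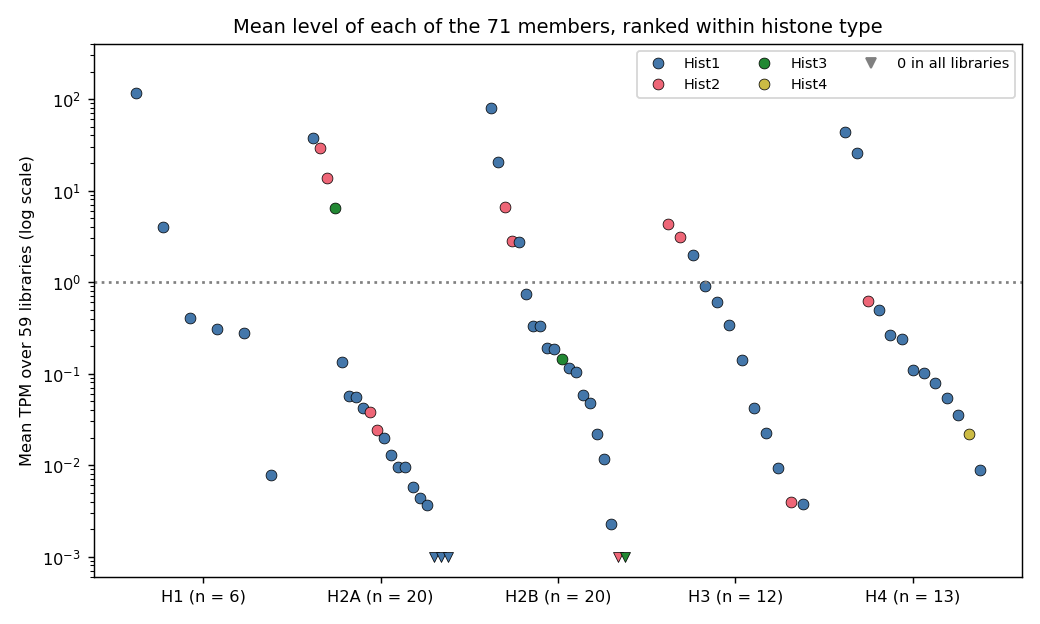
Mean TPM over 59 libraries (log scale) of each of the 71 members, ranked within histone type and colored by cluster, with triangles for members at 0 in all libraries and a dotted line at 1 TPM. A few members of each type stand above the line, 16 in all, and most of the rest lie below it, down to 5 at 0.

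Divided by type, H1 held 30.3% of histone cluster TPM, H2B 29.4%, H2A 20.1%, H4 17.3% and H3 2.90% (means of 59 libraries, of which 39 are diaphragms). The order differed between muscles. H2A was the highest type in soleus, with 30.6% in the non-cachectic and 29.6% in the cachectic group, beside 27.3% and 23.7% for H1 and 24.7% and 27.6% for H2B. In non-cachectic mock diaphragm H2A held 17.3%, H1 31.1% and H2B 32.98%. These shares do not follow the stoichiometry of the nucleosome, in which the core types are equal. H3 was the lowest type in every group mean. By cluster, Hist1 held 84.0%, Hist2 14.2%, Hist3 1.75% and the single Hist4 gene 0.00563%. The Hist1 share counts Hist1h2al by its name, with 8.58% of the total, and is 75.4% without this copy outside the cluster.

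The summed TPM of all 71 members was highest in soleus. It was 619 ± 97.0 (SD, n = 5) in non-cachectic and 668 ± 144 (n = 5) in cachectic soleus, 336 ± 32.8 (n = 5) and 423 ± 80.0 (n = 5) in non-cachectic and cachectic tibialis anterior, and 293 ± 37.1 (n = 9) and 398 ± 150.0 (n = 10) in non-cachectic and cachectic mock diaphragm. With rFibcd1 the diaphragm sums were 324 ± 35.0 (n = 10) and 402 ± 112 (n = 10). The cachectic and non-cachectic ranges overlapped in all 4 pairs. In the mock diaphragm the cachectic group ran from 292 through a median of 343 to 796, and the non-cachectic group from 243 through 297 to 348. The 796 came from 1 library, numbered 20 in the deposited table, and without it the cachectic mean was 354. Under median-ratio scaling the order of the melanomas turned in tibialis anterior, with means of 529 in non-cachectic and 467 in cachectic muscle, while it stayed at 309 and 355 in mock diaphragm and 628 and 641 in soleus. No test was made on these sums.

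**Figure D2:**
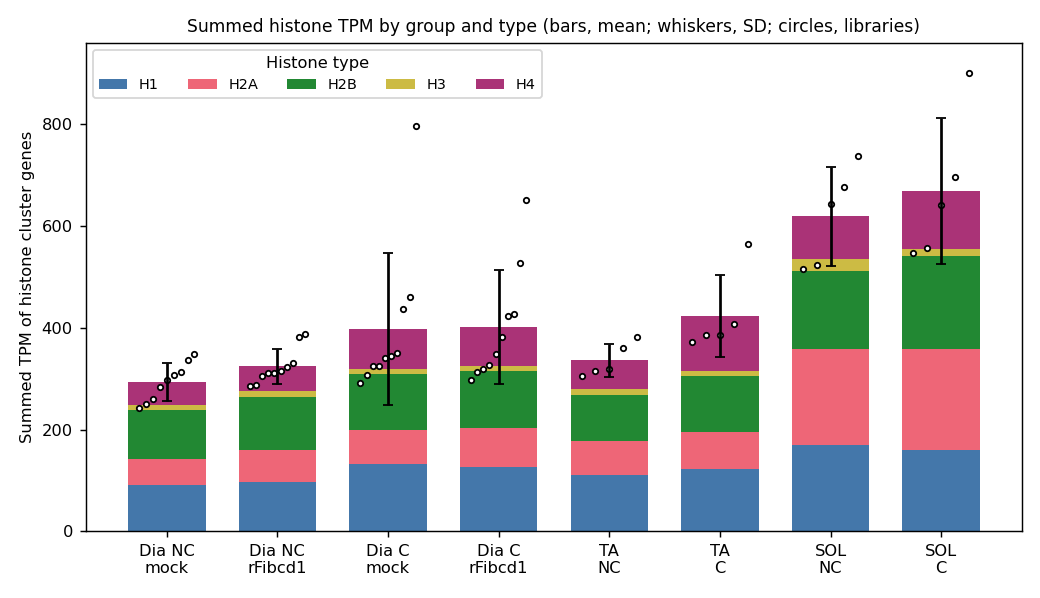
Summed TPM of the 71 members in the diaphragm (Dia), tibialis anterior (TA) and soleus (SOL) of mice with non-cachectic (NC) or cachectic (C) melanoma, as stacked group means by histone type with the SD of the total as whiskers and single libraries as circles. Soleus stands highest, at 516 to 900, and 1 cachectic mock diaphragm, at 796, lies far above the rest of its group.

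In the mock diaphragm, the comparison of cachectic with non-cachectic melanoma asked what the wasting tumor changes in the breathing muscle. Both abundant H4 genes and the linker histone Hist1h1c rose, and no member fell. Of the 17 members that passed the filter on low values, 3 were called higher and 0 lower, against 33.5% of all genes tested. The median log2 difference was 0.20 over these members and 0.20 over all genes tested, so that a typical member moved as a typical gene did.

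Hist1h4h ran from 32.2 through a median of 42.1 to 78.3 TPM in the cachectic and from 19.0 through 31.0 to 35.9 TPM in the non-cachectic libraries. Of the cachectic libraries 3 of 10 lay within the non-cachectic range, and of the non-cachectic libraries 3 of 9 within the cachectic range. Its log2 fold change was 0.68 ± 0.22 (SE; limma adjusted p = 0.0176). Hist1h4i, its near copy, ran from 14.1 through 20.5 to 88.8 against 10.6 through 15.8 to 20.7 TPM, a log2 fold change of 0.70 ± 0.25 (adjusted p = 0.0264). For Hist1h1c, which binds linker DNA, the values were 88.0 through 102 to 345 against 68.3 through 83.9 to 107 TPM (0.43 ± 0.17, adjusted p = 0.0458). The highest values of all 3 genes came from library 20, and without it Hist1h4i and Hist1h1c stood at 0.50 and 0.26 and no longer passed. The call of Hist1h1c was lost in 11 of 39 fits that left out 1 library. Hist2h2aa1, at 0.67 ± 0.29, missed the threshold (adjusted p = 0.0684), as did Hist1h1e at -0.41 ± 0.19 (adjusted p = 0.0863) and Hist2h3c2 at -0.34 ± 0.18 (adjusted p = 0.145). In a fit of only the 2 groups compared, Hist2h2aa1 (adjusted p = 0.0420) and, as lower, Hist1h1e (adjusted p = 0.0257) were called and Hist1h1c was not (adjusted p = 0.0740). That fit called 50.1% of all genes. Without the libraries that held at most 0.2 TPM of Hist1h2al, Hist2h2aa1 was called too (0.84, adjusted p = 0.0451), where 30.3% of all genes were called.

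These diaphragm calls depended on the scale. After median-ratio scaling, which sets the typical gene equal between libraries, Hist1h4h stood at 0.45, Hist1h4i at 0.48 and Hist1h1c at 0.20, none of them called, while Hist1h1e and Hist2h2be were then called lower (-0.58 and -0.37), where 15.9% of all genes were called. Among libraries above 1 TPM of Pcna-ps2, 9 against 3, the log2 fold changes were 0.67, 0.91 and 0.38 and 0 members were called, where 5.69% of all genes were. With this state as a term over all 39 diaphragms, Hist1h4h (0.83, adjusted p = 0.0160) and Hist1h4i (0.89, adjusted p = 0.0205) were still called higher, Hist1h1c was not (0.41, adjusted p = 0.143) and Hist2h2be was called lower (-0.40, adjusted p = 0.0268), where 15.3% of all genes were called. In the main fit of this comparison 4 of 8 macrophage markers rose and 0 fell, where 33.5% of all genes were called. The summed level of these markers was 406 to 1680 TPM in cachectic and 234 to 811 in non-cachectic libraries. The proliferation genes summed to 79.6 to 164 against 72.4 to 96.0 TPM. The part of either in the histone result was not tested. Library 20, the highest in Hist1h1c, ranked 6 of 10 in its group for proliferation genes and 9 of 10 for macrophage markers.

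Under rFibcd1, the same comparison of melanomas called 0 of 17 members, against 9.11% of all genes. Before adjustment 3 members had a p under 0.05, as had 3350 of all 13426 genes tested, and the Dunn test called 0 members and 0 genes. The lowest adjusted p belonged to Hist1h4h (0.59 ± 0.21, adjusted p = 0.0751), Hist2h3c2 (-0.43 ± 0.18, adjusted p = 0.114) and Hist1h1c (0.38 ± 0.16, adjusted p = 0.140). With the state of Pcna-ps2 as a term Hist1h4h was called higher (0.64, adjusted p = 0.0480), where 10.1% of all genes were called, and 4 of the fits that left out 1 library gave 1 call. This comparison drew on other libraries than the mock comparison. The difference between the melanoma effects with and without rFibcd1 was itself tested and called 0 of 17 (0.0223% of all genes; 0 members before adjustment). For Hist1h4h this difference was -0.09, with a 95% interval from -0.69 to 0.51, and for Hist1h4i it was -0.32, from -0.99 to 0.35.

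Injection of rFibcd1 was compared with mock injection within each melanoma to ask whether the protein acts on the muscle, and these contrasts share their groups with the comparisons of melanomas. In cachectic diaphragm it called 0 of 17 members (0.0447% of all genes), and in non-cachectic diaphragm 0 of 17 (0.417%). Before adjustment 0 and 1 members had a p under 0.05, beside 1412 and 2332 of 13426 genes. The Dunn test called 0 members in both, of 0 and 14 genes called. In a fit of only the 2 groups compared, 0 of 16 members were called in each, beside 0% and 19.6% of all genes. Among libraries above 1 TPM of Pcna-ps2 alone, the cachectic comparison called 5.57% of all genes and 1 of 19 members, Hist1h1e, as higher (0.56, adjusted p = 0.0354). The smallest adjusted p among the members was 0.581, for Hist1h1e in cachectic diaphragm at 0.30 ± 0.18, and 0.281, for Hist3h2a in non-cachectic diaphragm at 0.23 ± 0.11. The interval for Hist1h1c in cachectic diaphragm ran from -0.30 to 0.35 and that for Hist1h2bc from -0.13 to 0.27. The intervals for Hist1h2al (-2.14 to 1.61) and Hist2h2aa2 (-1.37 to 1.08) were far wider, since each copy varied widely within a group.

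In tibialis anterior, the cachectic melanoma went with higher H4 genes, 1 higher H2B gene (Hist1h2bc), lower H3 genes, a lower H1 gene and a changed division among the H2A copies. Of 16 members that passed the filter, 5 were called higher and 4 lower, where 60.2% of all genes were called. The median log2 difference was 0.24 over the members and 0.41 over all genes tested, so rises below about that size do not exceed the typical gene.

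Hist1h4i held 38.5, 39.2, 40.7, 43.0 and 76.3 TPM in the cachectic and 24.8, 24.8, 25.2, 26.5 and 32.8 TPM in the non-cachectic tibialis anterior, with no overlap. Its log2 fold change was 0.76 ± 0.18 (adjusted p = 0.00617). Hist1h4h held 36.1, 38.6, 41.2, 58.2 and 120.3 against 22.3, 23.5, 25.1, 33.3 and 39.5 TPM (0.88 ± 0.30, adjusted p = 0.0241), and these overlapped. It did not pass under median-ratio scaling (0.39, adjusted p = 0.163) or without the filter on low values (adjusted p = 0.0519). The highest values of both H4 genes came from the same library, number 8, which also ranked 1 of 5 for proliferation genes and for macrophage markers. Among the H2B genes, Hist1h2bc held 71.2, 74.2, 75.4, 84.9 and 99.2 against 62.0, 62.7, 63.3, 65.2 and 66.6 TPM (0.33 ± 0.11, adjusted p = 0.0221). Its groups did not overlap, yet its rise was smaller than that of the typical gene and turned to -0.17 under median-ratio scaling (adjusted p = 0.125). Hist3h2a, an H2A gene of the Hist3 cluster that shares its span with Trim17, rose by 0.49 ± 0.12 (adjusted p = 0.00793), from 5.67 ± 0.929 to 8.32 ± 0.862 TPM (SD, n = 5), which was also near the typical gene.

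The falling members of tibialis anterior moved against the typical gene. Hist1h1e, a linker histone, held 2.18, 2.60, 2.93, 3.24 and 5.34 TPM in the cachectic and 5.01, 5.57, 6.76, 7.03 and 7.42 TPM in the non-cachectic muscles, a log2 fold change of -0.82 ± 0.18 (adjusted p = 0.00452). Only 1 cachectic library reached the non-cachectic range. Hist2h3c1 held 2.56, 2.80, 3.15, 3.88 and 4.01 against 4.71, 4.84, 5.03, 5.29 and 5.80 TPM without overlap (-0.53 ± 0.12, adjusted p = 0.0061). Its identical copy Hist2h3c2 gave -0.37 ± 0.13 (adjusted p = 0.031). These 3 members stayed lower under median-ratio scaling, at -1.23, -0.93 and -0.74, where 2 members were called higher and 6 lower, beside 40.2% of all genes. The call of Hist2h3c2 was lost in 5 of 10 fits that left out 1 library, with adjusted p up to 0.0821. It was also lost without the filter on low values and without the libraries that held at most 0.2 TPM of Hist1h2al.

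In soleus, the same melanoma comparison found Hist1h1e, Hist2h3c1 and Hist2h3c2 lower. Of 18 members, 3 were called higher and 3 lower, against 25.1% of all genes, and the median log2 difference was 0.03 over the members and 0.09 over all genes. Hist2h3c1 held 2.36, 2.74, 4.44, 5.02 and 6.28 TPM in cachectic and 9.16, 10.1, 10.8, 10.97 and 11.5 TPM in non-cachectic soleus. The groups stood well apart, with a log2 fold change of -1.21 ± 0.19 (adjusted p = 0.00153). Hist2h3c2 held 3.16, 3.43, 4.59, 4.78 and 5.09 against 7.10, 7.15, 7.50, 7.63 and 10.05 TPM (-0.78 ± 0.13, adjusted p = 0.00228), again without overlap. Hist1h1e held 2.25, 2.31, 2.71, 2.97 and 3.22 against 4.38, 4.69, 5.27, 6.72 and 6.73 TPM (-0.82 ± 0.13, adjusted p = 0.00153). The summed H3 TPM was 13.7 ± 2.76 in cachectic and 24.0 ± 1.65 in non-cachectic soleus (SD, n = 5), with ranges of 10.3 to 16.01 and 22.1 to 26.4.

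Higher in cachectic soleus were 1 H4 gene and both Hist2h2aa genes. Hist1h4h held 55.0, 65.6, 69.9, 74.7 and 96.7 against 37.0, 43.7, 47.6, 60.1 and 62.6 TPM (0.52 ± 0.17, adjusted p = 0.0419), and the groups overlapped. This call was lost in 7 of 10 fits that left out 1 library, among them that without number 7, with adjusted p up to 0.0979. Hist2h2aa1 held 66.0, 75.9, 85.6, 107 and 115 against 46.3, 47.9, 48.2, 62.8 and 70.0 TPM (0.69 ± 0.17, adjusted p = 0.012), also with overlap. By the Dunn test neither Hist2h2aa1 (adjusted p = 0.0641) nor Hist1h4h (adjusted p = 0.0898) passed, and 1 member was called higher and 3 lower, beside 20% of all genes. Hist1h4i, called in the other muscles, did not pass here at 0.30 ± 0.17 (adjusted p = 0.213). Hist1h1c, the most abundant member, gave -0.08 ± 0.18 (adjusted p = 0.791) with an interval from -0.43 to 0.28. In the limb muscles, the macrophage list had 7 of 7 tested genes higher in tibialis anterior and 2 of 8 higher in soleus, beside 60.2% and 25.1% of all genes called, with sums of 52.8 to 365 against 31.5 to 63.6 TPM and 88.4 to 419.9 against 114 to 156 TPM. Satellite cell markers, of muscle stem cells, summed to 20.3 to 77.5 against 12.5 to 13.8 TPM in tibialis anterior and 23.8 to 46.9 against 22.2 to 25.7 TPM in soleus, and proliferation genes to 53.6 to 118 against 52.8 to 61.6 and 59.4 to 112 against 74.0 to 83.6 TPM. The part of these cells in the histone values was not tested. Mki67 and Top2a, which mark dividing cells, had medians of 0.0740 and 0.0423 TPM in tibialis anterior and 0.0905 and 0.0800 TPM in soleus.

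**Figure D3:**
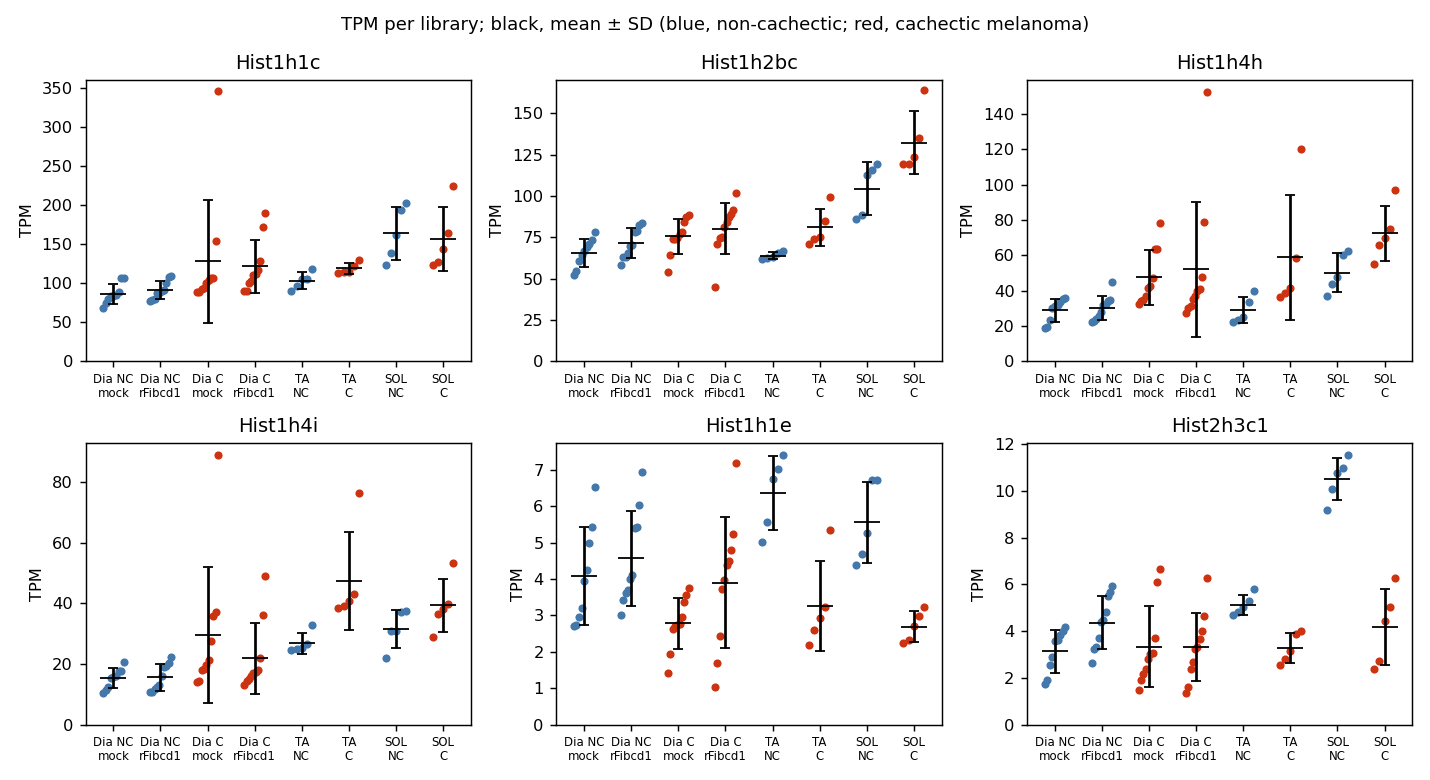
TPM of 6 members in each library of the 8 groups (blue, non-cachectic; red, cachectic melanoma; NC and C on the axis, with Dia for diaphragm, TA for tibialis anterior and SOL for soleus), with mean ± SD in black. Hist1h1e and Hist2h3c1 stand lower in cachectic limb muscles, and single high libraries stretch Hist1h1c, up to 345 TPM, and Hist1h4h, up to 152 TPM.

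**Figure D4:**
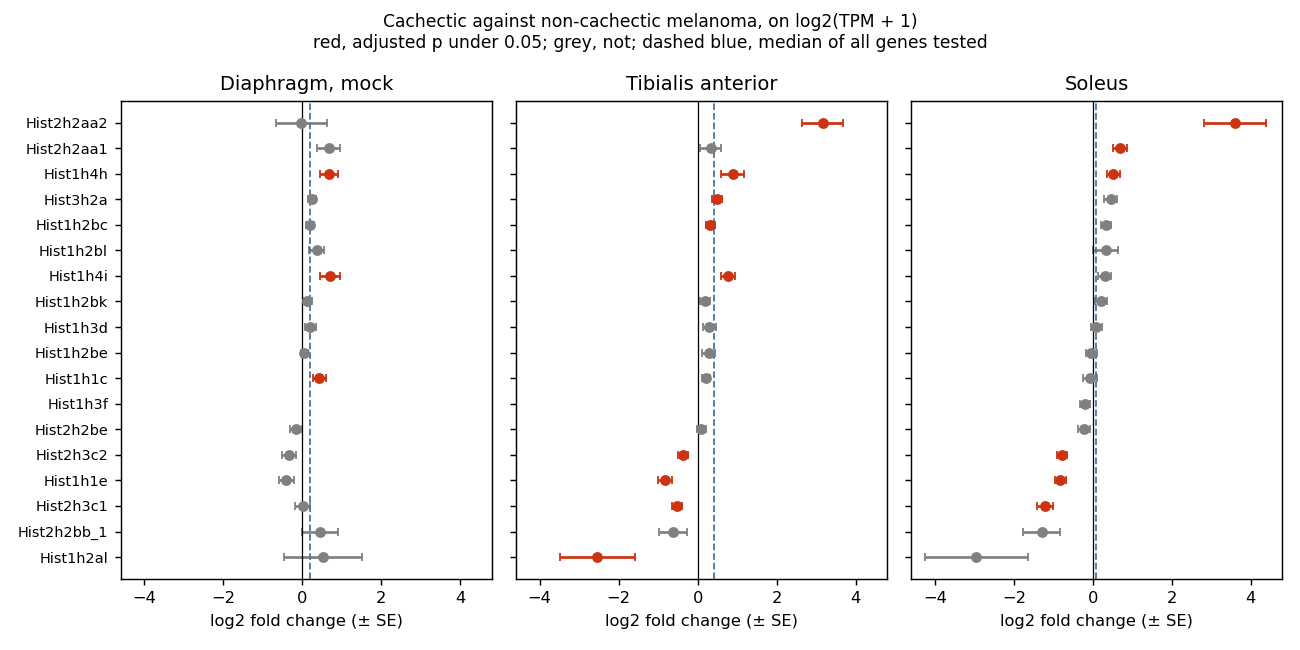
Log2 fold changes on log2(TPM + 1), with SE, between cachectic and non-cachectic melanoma for the members that passed the filter in mock diaphragm, tibialis anterior and soleus (red, adjusted p under 0.05; dashed, median of all genes tested). Most members lie near the dashed line, while Hist2h2aa2 stands at 3.17 and 3.60 in the limb muscles.

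The largest fold changes belonged to the copies of 1 H2A gene and have to be read together. Hist2h2aa2 held 16.7, 19.7, 24.5, 26.0 and 31.2 TPM in cachectic tibialis anterior and 0, 0.215, 1.11, 6.24 and 6.47 TPM in non-cachectic tibialis anterior, without overlap (3.17 ± 0.52, adjusted p = 0.0012). In soleus it held 32.8, 40.2, 45.2, 58.0 and 58.9 against 0, 0, 2.03, 12.2 and 20.8 TPM, again without overlap (3.60 ± 0.78, adjusted p = 0.00703). Hist1h2al moved the other way. It held 0, 0, 13.9, 29.0 and 35.8 against 33.7, 35.9, 38.1, 41.3 and 50.5 TPM in tibialis anterior (-2.54 ± 0.95, adjusted p = 0.0363) and 0, 0.190, 82.7, 85.5 and 111 against 101, 102, 120.3, 124 and 162 TPM in soleus (-2.95 ± 1.31, adjusted p = 0.121). In the mock diaphragm neither copy passed, with log2 fold changes of -0.03 ± 0.64 for Hist2h2aa2 and 0.52 ± 0.98 for Hist1h2al.

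Summed over Hist2h2aa1, Hist2h2aa2 and Hist1h2al, no difference between melanomas was called. The 3 copies together held 63.2 ± 16.9 TPM in cachectic and 61.8 ± 10.98 TPM in non-cachectic tibialis anterior and 193 ± 55.1 and 184 ± 32.1 TPM in soleus (SD, n = 5). Fitted as 1 feature, the log2 fold change was 0.01 ± 0.17 (adjusted p = 0.953) in tibialis anterior, 0.04 ± 0.19 (adjusted p = 0.913) in soleus and 0.40 ± 0.25 (adjusted p = 0.204) in mock diaphragm. The sum was chosen after the single values were seen. Whether the opposite values of the single copies lay in the RNA or in the assignment of reads was not tested.

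**Figure D5:**
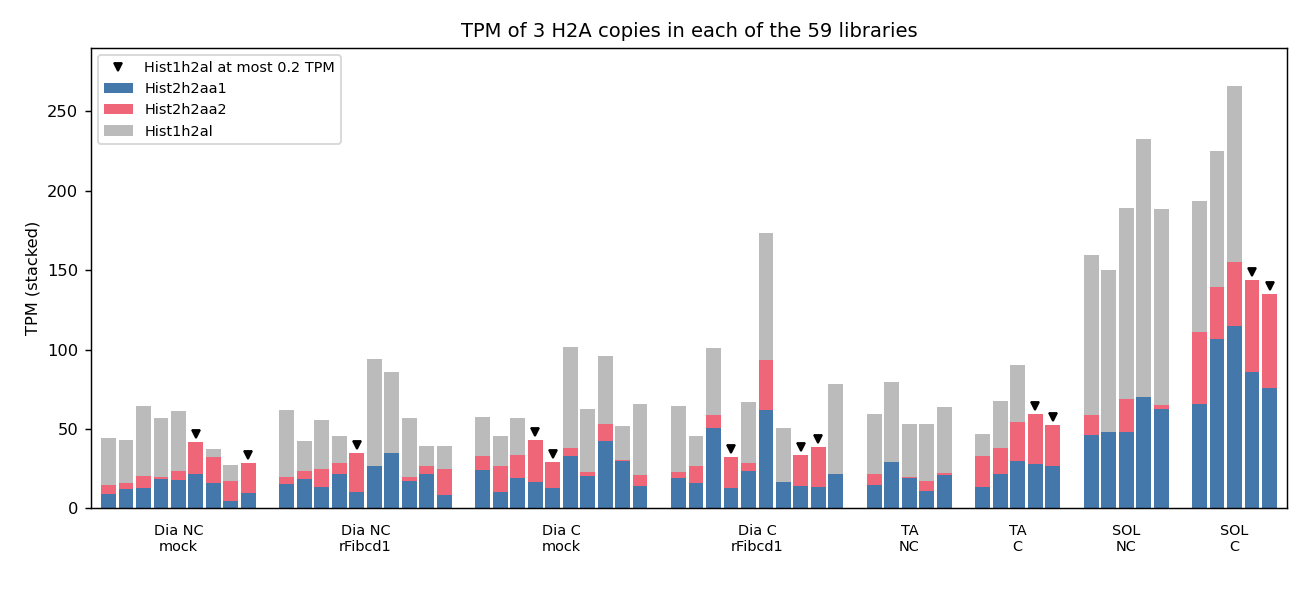
Stacked TPM of Hist2h2aa1, Hist2h2aa2 and Hist1h2al in each of the 59 libraries by group (Dia, diaphragm; TA, tibialis anterior; SOL, soleus; NC, non-cachectic; C, cachectic), with triangles over the 12 libraries that held at most 0.2 TPM of Hist1h2al. The mean height is 63.2 and 61.8 TPM in cachectic and non-cachectic tibialis anterior and 193 and 184 TPM in soleus, while Hist2h2aa2 takes a larger part of it in the cachectic ones.

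Some libraries held almost no Hist1h2al. It was at most 0.2 TPM in 12 libraries and 4.58 to 162 TPM in the other 47, with nothing between. Exactly the same 12 held at most 0.2 TPM of Hist2h2bb_1, an H2B gene of the Hist2 cluster. These were 5 of 20 cachectic and 3 of 19 non-cachectic diaphragms, 2 of 5 cachectic tibialis anterior, 2 of 5 cachectic soleus and no non-cachectic limb muscle. Hist2h2aa2 lay between 16.6 and 58.9 TPM in the 12 and between 0 and 45.2 TPM in the others. The table gives each column a number, and 10 numbers occur in all 3 muscles. Of these, 2 were at most 0.2 TPM in all 3 muscles, 8 in none and 0 in some only. All 12 held 5.87 to 18.4 TPM of Pcna-ps2. Without these libraries the Hist1h2al difference in tibialis anterior was -0.67 (adjusted p = 0.0613), while Hist2h2aa2 stayed at 2.97 (adjusted p = 0.0121) there and at 3.37 (adjusted p = 0.0366) in soleus.

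The melanoma effect was then compared between muscles in 1 fit of the 39 libraries without rFibcd1. Between mock diaphragm and tibialis anterior 1 of 18 members was called (5.04% of all genes), Hist2h2aa2, whose effect was lower in diaphragm by a log2 difference of -3.20 ± 0.90 (adjusted p = 0.0322). Between mock diaphragm and soleus 2 of 18 were called (2.52%): Hist2h2aa2 at -3.63 ± 0.90 (adjusted p = 0.0224) and Hist2h3c1 at 1.22 ± 0.28 (adjusted p = 0.0126). In the mock diaphragm Hist2h3c1 ran from 1.47 through 2.92 to 6.64 TPM in cachectic and from 1.74 through 3.59 to 4.16 TPM in non-cachectic libraries (0.01 ± 0.19), whereas it fell in soleus. Between tibialis anterior and soleus 0 of 18 were called (20.4% of all genes), with 1 below 0.05 before adjustment. That was Hist2h3c1 at 0.68 ± 0.32 (adjusted p = 0.118). With the column number as a block it was called at the same 0.68 (adjusted p = 0.0301), where 41.2% of all genes were. No Dunn test of a difference between effects was made. The copy sum gave 0.39 and 0.37 for the first pair of contrasts, and neither passed (adjusted p = 0.433 and 0.608). Without the libraries of this fit that lacked Hist1h2al, 2 in each of 4 groups, none of the 3 calls passed with fewer libraries entered. Hist2h2aa2 then stood at -2.996 (adjusted p = 0.141) against tibialis anterior and -3.39 (adjusted p = 0.0882) against soleus, and Hist2h3c1 at 0.88 against soleus (adjusted p = 0.0689).

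Among mice with the non-cachectic melanoma, the muscles were compared to ask how their resting levels differ. Soleus exceeded tibialis anterior in 11 of 18 members, and 0 were lower in soleus, where 69.5% of all genes were called. The median log2 difference of tibialis anterior from soleus was -0.71 over the members and -0.47 over all genes. Hist2h2aa1 showed the largest called difference, with 19.1 ± 6.94 TPM in tibialis anterior and 55.0 ± 10.7 TPM in soleus (-1.53 ± 0.32, adjusted p = 8.02e-05). Hist1h2be, an H2B gene, held 1.36, 1.49, 1.73, 2.31 and 2.41 against 3.70, 4.16, 4.38, 5.15 and 5.66 TPM without overlap (log2 difference -0.98 ± 0.14). Hist2h3c1 and Hist2h3c2 were lower in tibialis anterior by -0.91 and -0.87. With the copies summed, the H2A total differed by -1.56 ± 0.25 (adjusted p = 2.05e-06). With the column number as a block 12 were called, Hist2h2bb_1 in addition (-1.01, adjusted p = 0.0347 against 0.131 without it). Under median-ratio scaling 2 members were higher in tibialis anterior and 2 lower, where 53.7% of all genes were called. The Dunn test called 8 lower (37% of all genes), without Hist1h1c, Hist2h2aa1, Hist2h3c1 and Hist2h3c2 and with Hist2h2bb_1 in addition.

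Diaphragm stood below soleus as well. Of 18 members, 12 were called lower and 0 higher in non-cachectic mock diaphragm, against 38.8% of all genes, and the median log2 difference was -0.77 over the members and -0.04 over all genes. Unlike the typical gene, most members tested were lower. Hist2h2aa1 held 4.55 through 13.0 to 21.6 TPM in diaphragm and 46.3 to 70.0 TPM in soleus (-2.04 ± 0.28), Hist2h3c1 held 1.74 through 3.59 to 4.16 against 9.16 to 11.5 TPM (-1.51 ± 0.20), and neither overlapped. Hist1h1c gave -0.90 ± 0.20, Hist1h2bc -0.66 ± 0.11 and Hist1h4i -1.004 ± 0.26. The largest value was -3.39 ± 1.17 for Hist1h2al (adjusted p = 0.0203). With a pseudocount of 0.1 Hist1h2al was not called (-4.18, adjusted p = 0.0652) and Hist2h2aa2 was called higher (2.52, adjusted p = 0.0425). This gave 1 higher and 11 lower, where 40% of all genes were called. The summed copies differed by -2.05 ± 0.22 (adjusted p = 2.38e-09). Members that did not pass included Hist2h2be at 0.11 ± 0.12, Hist3h2a at 0.19 ± 0.13 and Hist1h1e at -0.39 ± 0.16 (adjusted p = 0.052). Under median-ratio scaling Hist1h1e was called lower, where 13 members were called lower, beside 47.3% of all genes. With the column number as a block 14 were called lower, Hist1h1e and Hist2h2bb_1 in addition, beside 49.9% of all genes. By the Dunn test and in a fit of only these groups Hist1h1e was not called.

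Diaphragm against tibialis anterior gave calls in both directions. Of 18 members 2 were higher and 4 lower in diaphragm, where 72.5% of all genes were called and the typical gene was higher by 0.44. Hist2h2be, an H2B gene whose annotated transcript lacks the stem-loop motif, ran from 6.42 through 7.41 to 9.35 TPM in diaphragm and was 3.18, 3.25, 3.47, 3.53 and 3.82 TPM in tibialis anterior, without overlap (0.93 ± 0.12). Hist2h2aa2 was higher by 1.78 ± 0.64 (adjusted p = 0.0134), which did not pass without the libraries that lacked Hist1h2al (1.45, adjusted p = 0.0645) or by the Dunn test (adjusted p = 0.177). The summed H2A copies went the other way and were lower in diaphragm, by -0.49 ± 0.22 (adjusted p = 0.0462). Lower were Hist1h4i (-0.79 ± 0.26), Hist2h3c1 (-0.60 ± 0.20), Hist2h3c2 (-0.59 ± 0.16) and Hist1h1e (-0.57 ± 0.16). Under median-ratio scaling 2 members were called higher and 11 lower, where 71.1% of all genes were called. The Dunn test called Hist2h2be and Hist2h3c1 alone (51% of all genes).

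The members under 1 TPM on average gave few values to describe, and those among them outside the rule for named genes are named after their values were seen. Only 8 of them reached 1 TPM in any library: Hist1h2bl in 20, Hist1h3f in 19, Hist2h4 and Hist1h3i in 7 each, Hist1h4n in 5, Hist1h4c in 2, and Hist1h2bh and Hist1h1a in 1 each. Hist1h3f was tested in soleus, where it gave -0.21 ± 0.13 between melanomas (adjusted p = 0.248), and was lower in tibialis anterior than in soleus by -0.55 ± 0.15 (adjusted p = 0.00153). Hist1h2bl gave 0.36 ± 0.19 in mock diaphragm (adjusted p = 0.145). Hist1h4n reached 7.99 TPM in library 20 of the cachectic mock diaphragms, which also held 28.2 TPM of Hist2h2bb_1 against at most 7.21 TPM elsewhere. In all, 18 members were tested in some comparison, 53 in none, and 11 were called in a comparison of melanomas. Of all genes, the melanoma comparison called 60.2% (tibialis anterior), 33.5% (diaphragm, mock), 25.1% (soleus) and 9.11% (diaphragm, rFibcd1). No pooled share of all genes is given here, so the count of 11 cannot be read as high or low.

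Genes that make or handle histone messages were set beside the members. Of the 22 histone mRNA processing genes found in the table, 7 of 21 tested rose and 0 fell between melanomas in mock diaphragm, 14 of 20 rose and 0 fell in tibialis anterior, and 2 rose and 1 fell of 21 in soleus. Over all genes tested, 33.5%, 60.2% and 25.1% were called in these muscles in either direction, and the counts of this and the following lists are to be read against those shares. The tibialis anterior rises included Srrt (0.98 ± 0.19), which links the cap-binding complex to 3′ end processing, Lsm10 (0.89 ± 0.18) of the U7 RNP and Cpsf3 (0.71 ± 0.16), the nuclease that cuts histone and polyadenylated messages. Their median log2 difference there was 0.43, beside 0.41 over all genes. Slbp, which binds the stem-loop, lay between 1.71 and 5.13 TPM in the group means. Histone genes outside the clusters, which give polyadenylated messages in all phases of the cell cycle, had 4 of 11 higher and 0 lower in mock diaphragm, 5 of 8 and 0 in tibialis anterior, and 3 of 10 higher and 2 lower in soleus. H3f3b, which encodes the replacement histone H3.3, rose by 0.59 ± 0.15 and 0.79 ± 0.22 in the former pair of muscles, while no clustered H3 gene was called higher in either.

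Histone chaperones gave 3 of 9 higher in mock diaphragm, 3 of 7 in tibialis anterior and 0 of 8 in soleus, with 0 lower in each, beside 33.5%, 60.2% and 25.1% of all genes called. In mock diaphragm these were Asf1b (0.60 ± 0.13), Cabin1 (0.30 ± 0.11) and Hira (0.25 ± 0.06), the last of which loads H3.3 outside S phase. Proliferation genes gave 2 higher and 1 lower of 28 in mock diaphragm, 5 and 1 of 12 in tibialis anterior, and 1 and 2 of 13 in soleus. Neutrophil markers rose in 2 of 2 tested in each muscle. Satellite cell markers rose in 1 of 3, 1 of 1 and 0 of 3. B cell markers gave 0 of 6 in diaphragm, 1 lower of 1 in tibialis anterior (Ighm) and 0 of 1 in soleus. Red cell precursor markers gave 0 of 3 in each muscle, and of the melanocyte markers 0, 0 and 1 could be tested, none of them called. Muscle markers gave 3 higher and 1 lower, 2 and 2, and 3 and 0 of 6.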

How the data were processed

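RNA of 59 muscles was sequenced from mRNA libraries and, per the labels and the study's methods, mapped to mm10 (GRCm38) and quantified with CLC Genomics Workbench. The authors deposited 1 table of TPM values per gene and library; read counts were not used, so the depth is unknown. The annotation and the handling of multiply mapping reads are not given in the sources used here. The labels name a stranded mRNA kit and the methods another kit.

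Values were analysed as log2(TPM + 1) with limma 3.58.1 (R 4.3.3; lmFit, contrasts.fit, eBayes with trend), because TPM is no count. Genes with at least 1 TPM in as many libraries as the smallest group of the fit were kept. Separate fits were made over 39 diaphragms, 10 tibialis anterior and 10 soleus libraries, and 1 over the 39 libraries without rFibcd1, for 13 comparisons in all. P-values were two-sided, adjusted by Benjamini-Hochberg over all genes tested, and called under 0.05. Fold changes on this scale understate changes of low genes. The study's Kruskal-Wallis and Dunn tests were kept as an alternative.

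Sequence features were read from GENCODE M21 with Biopython 1.88 in Python 3.11.15. Scripts were tested on simulated data. Members, gene lists and markers were chosen with earlier results of these data known. All members were accounted for; those given with values were called in a comparison, stood among the 5 highest or 5 lowest log2 fold changes or the 10 highest means, or were near copies of these. Column numbers of the table could not be tied to the labelled replicates, only to groups, and whether equal numbers mark the same mouse is not stated. For 10 numbers found in all muscles, deviations from the group means correlated at 0.133 to 0.502 between diaphragm and tibialis anterior, 0.196 to 0.493 between tibialis anterior and soleus and 0.0101 to 0.450 between diaphragm and soleus. Every correlation lay above 0.1 for the former 2 pairs of muscles and not for the last. If equal numbers mark the same mouse, they do so in all muscles. Blocked values therefore stand beside the results they change in every pair, including the last.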

Additional observations from a re-analysis of the deposited data

Results flagged for a closer look

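Among 168 sets of 4 to 10 libraries of 1 group, 23 had an extreme library that lay apart by Dixon's criterion, and chance gives about 1 in 20. Several came from the same library. The cachectic mock diaphragm numbered 20 was the highest in summed TPM of all members (796, next 461), of the Hist1 cluster (707, next 400.3), of H1 (350, next 158) and of H4 (179.9, next 104), and in Hist1h1c (345 TPM, next 153) and Hist1h4i (88.8 TPM, next 37.3). Cachectic tibialis anterior number 8 was the highest in summed TPM of all members (564, next 407), of the Hist1 cluster (487, next 329) and of H4 (200.1, next 100.2), and in Hist1h4h (120.3 TPM, next 58.2) and Hist1h4i (76.3 TPM, next 43.0).

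In cachectic rFibcd1 diaphragm the highest library stood apart in H4 (203, next 118) and Hist1h4h (152 TPM, next 78.8), in H2A (180.3, next 110.1) and in the sum of the 3 near-identical H2A copies (173, next 101), and the lowest in H2B (70.6, next 103). Cachectic soleus had a high library in H2B (231, next 176) and Hist1h2bk (49.4 TPM, next 33.2). Non-cachectic soleus had a low one in the Hist3 cluster (3.87, next 4.83) and in its main gene Hist3h2a (3.69 TPM, next 4.74), and non-cachectic tibialis anterior a high one in Hist1h4i (32.8 TPM, next 26.5). The single Hist4 gene gave 0.0189 TPM in 1 cachectic tibialis anterior and 0.0859 TPM in 1 cachectic soleus, both near 0.

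The difference between melanomas was itself different between muscles for Hist2h2aa2 (log2 difference -3.20 for mock diaphragm against tibialis anterior and -3.63 against soleus) and for Hist2h3c1 (1.22 against soleus), as tested in 1 limma fit. Hist2h2aa2 shares its whole coding sequence with Hist2h2aa1, and the sum of the 3 copies was not called in either contrast.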

How the results depend on the processing

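Alternatives were other pseudocounts, filters, scaling, tests, sample choices and library states, and each library left out in turn. The fits that left out 1 library were counted apart, with 1466 values of single members that kept direction and side of the threshold and 49 that lost the threshold. Of 389 such values under the other alternatives, 344 kept both, 44 lost the threshold and 1 turned: Hist1h2bc in tibialis anterior, -0.17 under median-ratio scaling. Of the counts and sums under these other alternatives, 100 stayed within 1.5 times or 1 SD and 26 did not.

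The count of members called between melanomas in mock diaphragm was 0 among libraries above 1 TPM of Pcna-ps2, and under rFibcd1 1 (Hist1h4h) with this state as a term. For rFibcd1 against mock in cachectic diaphragm it was 1 (Hist1h1e) among those libraries, where 5.57% of all genes were called. Diaphragm against tibialis anterior in melanoma effect gave 0 without a filter (2.28% of all genes), 2 under median-ratio scaling (5.25%), and 0 with H2A copies summed (5.04%) or without the libraries that lacked Hist1h2al (1.57%). Diaphragm against soleus gave 1 with a mean of at least 5 TPM (1.98%), 1 with copies summed (2.51%) and 0 without those libraries (2.19%), and tibialis anterior against soleus 1 under median-ratio scaling (11.6%). With a mean of at least 5 TPM only 10 members were tested, and between non-cachectic muscles 6 were called for tibialis anterior against soleus (74.8% of all genes), 3 for diaphragm against tibialis anterior (71%) and 7 for diaphragm against soleus (39.9%). The former 2 gave 4 and 13 of 18 under median-ratio scaling (53.7% and 71.1%), and the second 2 by the Dunn test (51%). The copy sum and the omission of libraries were chosen after seeing the data. Why scaling or state moved these counts was not tested.

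Leaving out 1 library gave 1 to 5 members in mock diaphragm: 1 without cachectic mock number 8, 20 or 32 or non-cachectic mock number 61, and 5 without cachectic rFibcd1 number 11. The range was 0 to 1 under rFibcd1 (1 without cachectic rFibcd1 number 2, 17 or 18 or cachectic mock number 20), 5 to 11 in tibialis anterior (5 without non-cachectic number 64), 5 to 7 in soleus, 0 to 1 for diaphragm against tibialis anterior (0 without number 8, 9, 62, 63 or 65 of the latter) and 1 to 2 against soleus (1 without number 62 or 64), 5 to 7 for non-cachectic diaphragm against tibialis anterior and 12 to 14 against soleus. In tibialis anterior the call was lost in 7 of 10 such fits for Hist1h2al (-1.84 without number 9 or 10), in 5 of 10 for Hist2h3c2 and in 3 of 10 for each of Hist1h4h and Hist1h2bc, where fewer libraries entered.

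Summed TPM without Hist1h1c was 280.4 and 233 in cachectic and non-cachectic rFibcd1 diaphragm, 207 in non-cachectic mock diaphragm, 304 and 233 in cachectic and non-cachectic tibialis anterior, and 512 and 455 in soleus. Under median-ratio scaling non-cachectic tibialis anterior summed to 529.

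With the column number as a replicate block (correlation 0.381) the comparisons of melanoma effects called 1, 2 and 1 members for diaphragm against tibialis anterior, diaphragm against soleus and tibialis anterior against soleus (17.2%, 7.36% and 41.2% of all genes) and those of non-cachectic muscles 6, 14 and 12 (76.9%, 49.9% and 76.1%). Tibialis anterior against soleus gained Hist2h3c1 in melanoma effect and Hist2h2bb_1 among non-cachectic muscles, non-cachectic diaphragm against soleus gained Hist2h2bb_1 and Hist1h1e, and the block changed no other call. Depth is unknown for TPM, so the precision of low values cannot be given.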
